A study of Mus musculus with 7 samples.

Results

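Gene-desert H3K27ac peaks are the acetylated regions of cerebellar granule neuron precursors (GNPs) that lie far from any promoter of a protein-coding gene. They were taken as the peaks on chromosomes 1 to 19 whose summit is more than 100 kb from every start of a protein-coding transcript in GENCODE M21 (mouse build mm10). The rule found 5344 of 30723 peaks, or 17.4% (95% Wilson interval 17.0 to 17.8). Of the other peaks, 15187 had a summit 1 to 100 kb from a start and 10192 within 1 kb, and these are called intermediate and promoter peaks below.

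The study profiled chromatin by ChIP-seq in granule cells of C57BL/6 mice at postnatal day 7, with 1 sample per condition. H3K27ac was measured in freshly isolated wild-type (WT) GNPs. Chd7, an ATP-dependent chromatin remodeller, was measured in WT GNPs and in Chd7-deficient GNPs, in which Atoh1-Cre deletes floxed Chd7 in the granule lineage, less completely in the posterior lobe. Top2b, the topoisomerase that cuts both DNA strands in postmitotic neurons, was measured in cerebellar granule neurons (CGNs) of both genotypes after 48 h in culture without Sonic hedgehog.

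Acetylation of lysine 27 on histone H3 marks active promoters and enhancers, the DNA elements to which transcription factors bind to raise transcription of a gene that can be far away. Genes for developmental transcription factors and for neuronal adhesion molecules often sit beside long stretches of DNA with few genes, and such stretches hold many of the enhancers known for these loci. GNPs proliferate in the external granule layer under Sonic hedgehog signalling and then differentiate into granule neurons, a lineage set up by the factors Atoh1, Zic1, Pax6, Meis1 and the nuclear factor I (NFI) family.

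Before the counts, sequences are given for 6 gene-desert elements, 5 of them centred on the Chd7 summit at desert peaks with high Chd7 enrichment and the last on the H3K27ac summit of the strongest peak in the desert beside Zic4. Each runs 100 bp to either side of its summit on the forward strand of GRCm38 (the sequence of mm10), 5′ to 3′, from the RefSeq assembly. Capitals mark, on either strand, the GC-core E-box (CAGCTG) and the GA-core E-box (CAGATG), bound by basic helix-loop-helix factors such as Atoh1 and Neurod1, as well as the NFI motif (TTGGCA) and the Zic motif (CAGCAGG). Homeodomain, Meis, Sox and POU motifs were searched as well and were not found in these 6 windows. The names give the gene that holds the element or the genes whose starts flank it.
Reln intron, chr5:22093380-22093580: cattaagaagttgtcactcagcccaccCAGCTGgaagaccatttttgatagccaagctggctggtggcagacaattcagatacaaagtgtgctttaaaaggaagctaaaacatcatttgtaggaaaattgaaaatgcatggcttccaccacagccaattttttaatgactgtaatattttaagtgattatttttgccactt
Brinp3 to Pla2g4a, chr1:149672178-149672378: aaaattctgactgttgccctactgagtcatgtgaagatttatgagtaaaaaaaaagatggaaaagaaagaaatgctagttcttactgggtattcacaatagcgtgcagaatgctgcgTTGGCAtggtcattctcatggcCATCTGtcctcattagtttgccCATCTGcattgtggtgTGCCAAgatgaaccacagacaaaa
Frk to Amd2, chr10:34904340-34904540: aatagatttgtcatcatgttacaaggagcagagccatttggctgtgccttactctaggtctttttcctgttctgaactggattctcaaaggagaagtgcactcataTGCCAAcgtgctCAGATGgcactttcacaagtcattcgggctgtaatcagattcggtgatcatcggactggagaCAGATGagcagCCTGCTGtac
Tmem161b to Ccnh, chr13:84348185-84348385: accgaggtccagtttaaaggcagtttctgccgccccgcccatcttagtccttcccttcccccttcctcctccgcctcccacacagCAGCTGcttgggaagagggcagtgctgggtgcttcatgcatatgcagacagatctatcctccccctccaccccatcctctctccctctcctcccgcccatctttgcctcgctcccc
Gpm6a to Adam29, chr8:55373862-55374062: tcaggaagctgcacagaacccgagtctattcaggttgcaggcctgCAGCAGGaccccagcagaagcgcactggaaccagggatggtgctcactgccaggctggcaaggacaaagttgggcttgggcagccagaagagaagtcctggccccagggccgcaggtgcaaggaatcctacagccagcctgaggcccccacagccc
Tbc1d2b to Zic4, chr9:90693339-90693539: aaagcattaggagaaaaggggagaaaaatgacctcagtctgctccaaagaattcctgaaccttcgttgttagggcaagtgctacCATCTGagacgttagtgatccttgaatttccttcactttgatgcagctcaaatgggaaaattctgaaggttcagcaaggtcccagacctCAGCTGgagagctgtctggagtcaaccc

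These elements differed in the motifs they held. The Chd7 summit between Brinp3 and Pla2g4a held the GA-core E-box at 2 places and the NFI motif at 2, while the summit between Frk and Amd2 held the GA-core E-box at 2 places beside 1 NFI and 1 Zic motif. In the Reln intron and between Tmem161b and Ccnh the marked motif was a single GC-core E-box, and between Gpm6a and Adam29 a single Zic motif. The H3K27ac summit beside Zic4 held 1 E-box of each kind.

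In the median, gene-desert peaks were close to intermediate peaks in enrichment and weaker and narrower than promoter peaks. Their median fold enrichment, the pileup of fragments at the summit over the local background, was 3.79 (95% interval of the median 3.77 to 3.85), against 3.81 for intermediate and 7.41 for promoter peaks. Median width was 513 bp (503 to 524), against 555 bp and 930 bp. The desert values ranged from 1.89 to 28.8 in fold enrichment and from 307 to 18566 bp in width, so the strongest desert peaks reached well into the range of promoters. All intervals cover counting error only: peaks of a library are not replicates, no error between animals can be had from 1 library, and differences between groups of peaks were therefore compared by their intervals without a test.

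**Figure D1:**
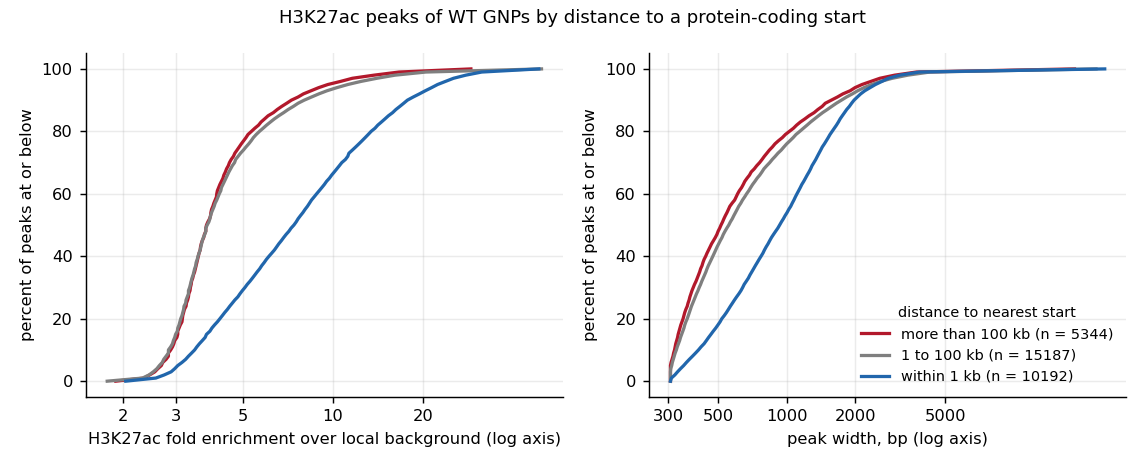
Cumulative percent of H3K27ac peaks of WT GNPs by fold enrichment (left) and width in bp (right), both on log axes, for peaks more than 100 kb (n = 5344), 1 to 100 kb (n = 15187) and within 1 kb (n = 10192) of a protein-coding start. The desert and intermediate curves nearly coincide, with medians of 3.79 and 3.81, and the promoter curve lies to the right of both.

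The 2 sides of the distance limit looked alike in size. The 393 desert peaks at 100 to 110 kb had a median fold enrichment of 3.73 and the 482 intermediate peaks at 90 to 100 kb one of 3.77. Chd7, described below, overlapped 3.82% (2.33 to 6.20) of the former and 2.07% (1.13 to 3.78) of the latter. Peaks just inside the limit included those within Gmds and Prkca and beside Armc2 and Ccdc90b, with fold enrichments of 2.71 to 13.2. Just outside it lay peaks beside Mrps10 and Klf3 and within Myo1d, Magi2 and Adamts6, with fold enrichments of 2.93 to 13.4. Peaks grew narrower with distance, from a median of 526 bp at 100 to 200 kb to 428 bp (410 to 457) for the 186 peaks more than 1000 kb away. The farthest, at 2494 kb, stood between the protocadherin genes Pcdh20 and Pcdh9 and was 307 bp wide with a fold enrichment of 3.59.

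Distance from a coding start did not mean absence of genes. Of the desert summits, 1825 (34.2%) lay in an intron and 49 (0.917%) in an exon of a protein-coding gene, 626 (11.7%) in a non-coding gene only and 2844 (53.2%) in no annotated gene. In all, 1874 (35.1%) were thus inside long protein-coding genes and 3470 (64.9%) outside. Starts of other kinds often lay nearer than 100 kb. Within 1 kb of the start of a non-coding gene, here any gene not annotated as protein-coding, lay 213 desert summits (3.99%). When every annotated transcript was used, non-coding transcripts of protein-coding genes included, 896 remained more than 100 kb from a start. The DNA more than 100 kb from a coding start made up 38.6% of the sequenced bases of these chromosomes (925 Mb) and carried 5.78 peaks per Mb, against 17.3 elsewhere.

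The strongest desert peak, with a fold enrichment of 28.8, lay in an intron of Negr1, which encodes a neuronal adhesion molecule of the IgLON family. It spanned chr3:156918384-156921793, 358 kb from the Negr1 start and 0.189 kb from the start of the non-coding gene Gm15577, and overlapped a Top2b peak of WT CGNs. Next came the peak whose summit sequence beside Zic4 is given above, at chr9:90689053-90704477, with a fold enrichment of 28.0 over 15425 bp. Zic4 shares its locus with Zic1, and both encode zinc-finger factors of the granule lineage. The peak lay 669 kb from the Zic4 start and 423 kb from the nearer start of Tbc1d2b. The third, with a fold enrichment of 27.7 at chr1:149669271-149674019, lay 250 kb from Pla2g4a, which encodes a cytosolic phospholipase, and 3174 kb from Brinp3.

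Desert acetylation was both strong and broad on either side of Tmem161b, whose neighbour on the left is Mef2c, a MADS-box factor of neuronal differentiation. The peak at chr13:83865099-83870269, 214 kb from the Mef2c start and within the non-coding gene C130071C03Rik, reached 26.2. On the far side of Tmem161b, neighbouring peaks at chr13:84343182-84348023 and chr13:84348251-84350799 reached 26.6 and 26.9, at 121 and 124 kb from the Tmem161b start. The other peaks among the strongest 10 lay in the non-coding genes Gm42944 between Cyp7b1 and Armc1 and Gm26576 beside Reep3 (25 each), and in introns of the calcium channel gene Cacna2d1 (24.8) and the growth factor receptor gene Igf1r (24.4).

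Width picked out many of the same loci. The widest desert peak, 18566 bp at chr4:81564613-81583178, lay between Mpdz, a scaffold protein gene, and Nfib, an NFI family member. Its summit was 137 kb from the Mpdz start and 926 kb from the Nfib start. Peaks of 15701, 11478 and 8606 bp stood in the deserts around Tmem161b, and peaks of 11236 and 10238 bp between Etaa1 and Meis1, which encodes a homeodomain factor of the granule lineage.

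Desert peaks and their signal were spread unevenly over the intervals between coding starts. Neighbouring coding starts enclosed 2348 intervals long enough to hold a desert peak, of which 1094 (46.6%) held at least 1 and 152 held at least 10. Those 152 intervals contained 2550 of the desert peaks (47.7%). They were also long, with a median of 888 kb against 295 kb for intervals between genes with no desert peak. Their share of the DNA was not computed. With signal taken as width times pileup, the 20 intervals with the most signal held 26.6% of all desert signal but 10.3% of the peaks (551). The largest interval between genes without a desert peak, 2886.8 kb, lay between Kcnv1 and Csmd3.

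The intervals with the most signal were picked after their values were seen. Tmem161b to Ccnh led with 14 desert peaks over 964.2 kb, at a median fold enrichment of 8.17, 5 of them with Chd7. Tbc1d2b to Zic4 followed with 7 peaks over 1091.6 kb, at a median of 7.70. Mef2c to Tmem161b held 14 peaks over 569.4 kb and Mpdz to Nfib 16 over 1062.5 kb, with medians of 5.46 and 4.08. The first 3 thus combined few peaks with high medians, whereas the interval between Hrh4 and the zinc-finger factor gene Zfp521 held the most, 59, with a median of 3.5 and a highest value of 12.6. Another interval with many peaks was Id2 to Rnf144a, with 44.

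**Figure D2:**
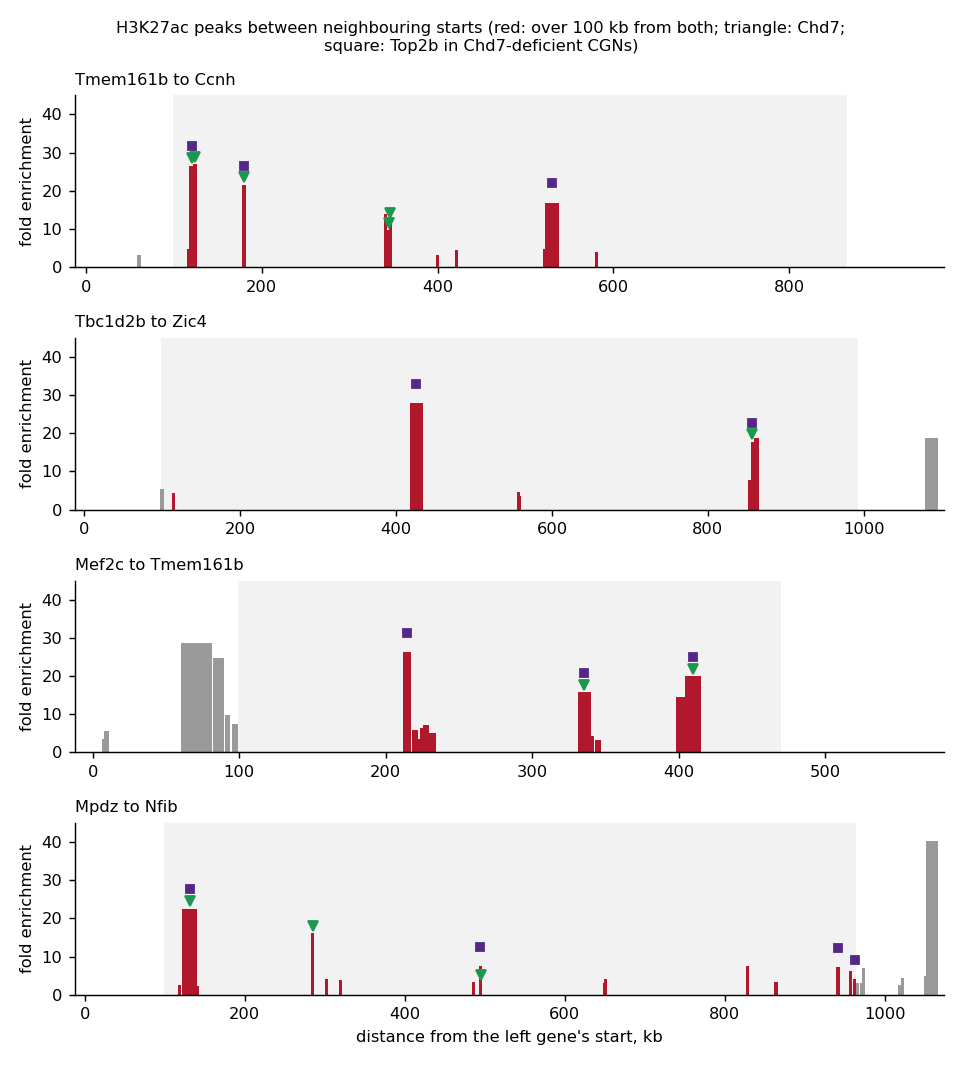
H3K27ac peaks in the 4 intervals with the most desert signal, plotted by distance in kb from the start of the left gene against fold enrichment. Bars span the peaks (at least 4 kb wide for visibility), red for desert peaks and grey for peaks within 100 kb of a start. The shaded band is DNA more than 100 kb from both starts. Green triangles mark desert peaks that overlap Chd7 in WT GNPs, and purple squares those that overlap Top2b in Chd7-deficient CGNs. Grey peaks are left unmarked although some overlap both, such as the peak of fold enrichment 40.3 in the Nfib panel. Strong desert peaks reach 26.9, 28.0, 26.2 and 22.6 from top to bottom, and the marks sit mainly on them.

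Peaks also clustered at short range. When desert peaks with edges within 12500 bp were joined, 2116 (39.6%) stood alone, 1322 (24.7%) paired and 1906 (35.7%, 34.4 to 37.0) fell into 450 clusters of 3 or more. Counted with neighbours of every class, 36.7% of desert peaks were in such clusters, against 54.4% of intermediate and 25.4% of promoter peaks. Clusters of 15 and 12 peaks lay within Zfp521 and Zfp423, which encode related zinc-finger factors, and clusters of 11 between Map3k1 and Ankrd55, between Pros1 and Epha3, between Npvf and Nfe2l3, within Nav2 and within App. Lone peaks were the narrowest, with a median of 464 bp against 592 bp in clusters of 6 or more.

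The genes nearest to most desert peaks were Celf4, an RNA-binding protein of neurons, with 48, Zfp521 with 44, Rnf144a, a ubiquitin ligase, with 41, Klhl29 with 35 and Dtwd2 with 34. Lsamp, another IgLON adhesion molecule, Mycn, which drives GNP proliferation downstream of Sonic hedgehog, and Pla2g4a each had 28, Npvf and Zfp608 27, and Eno1b and L3mbtl4 26. The promoter was acetylated at all of these except Pla2g4a, Npvf and Eno1b, and at 46.5% of all coding genes. Zfp608 had 7 peaks with Chd7 among its 27 and Mycn none among its 28, beside a share of 5.46% over all desert peaks. Other genes with many desert peaks, such as Basp1 with 22 and Ankrd7 with 19, had none either. Differences between single genes were not tested. By gene body, Zfp521 held 35 desert peaks, Lsamp 26 and Msi2, an RNA-binding protein of progenitors, 25, and 459 genes held at least 1.

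Lists of genes were then read against the 3480 coding genes that border an interval able to hold a desert peak, of which 614 (17.6%, 16.4 to 18.9) were nearest to at least 3. The list of granule lineage genes held mostly transcription factors, but also genes such as Reln, Unc5c, Cadps2 and Gap43. Of its 26 bordering genes, 13 (50%, 32.1 to 67.9) were nearest to at least 3. Mycn led, followed by Zic4 with 17, at a median fold enrichment of 6.06, Meis1 with 16, Reln with 12 and the Hedgehog effector Gli2 and Nfia with 11 each. Nfib had 7, Tcf4 9, Etv1 10, Barhl2 6, Unc5c 5, and Pou3f2 and Rora 3 each. All 13 had an acetylated promoter, as did 90.7% of the whole list and 46.5% of all coding genes. Of the 147 desert peaks nearest to genes of the list, 7 (4.76%, 2.33 to 9.50) overlapped Chd7, near the 5.46% of all desert peaks.

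The list of other developmental factors was drawn up as factors of gene deserts. Of its 51 bordering genes, 23 (45.1%, 32.3 to 58.6) passed the same count. After Zfp521 came Dach1 and Sox9 with 13 each, Klf12 with 12, and Auts2, Mef2c, Sox4, Zeb2 and Zfp536 with 10 each. Auts2 had 4 peaks with Chd7 among its 10, beside 5.46% of all desert peaks. Adhesion and guidance genes gave the highest share, 46 of 77 (59.7%, 48.6 to 70.0). Lsamp, the netrin receptor gene Dcc with 25, the cadherin gene Cdh8 with 24, Pcdh9 with 18 and Lrrn3 with 16 led this list, and the Slit receptor gene Robo1 had 15. Chd7 overlapped 26 of the 421 desert peaks of this list (6.18%, 4.25 to 8.90) and 11 of the 227 of the developmental factors (4.85%, 2.73 to 8.47), and both shares lay near that of all desert peaks. The lists were chosen with earlier results of these data known, and nearness does not show which gene an element acts on. All bordering genes were not matched to the lists for length of interval or gene. The part of length in the shares of the lists was not tested.

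Deserts with acetylated peaks mostly had an acetylated promoter at an end. A promoter was called acetylated when an H3K27ac peak came within 1 kb of a start of its gene, which held for 46.5% of all 20733 coding genes. On at least 1 side of the desert peak this held for 4761 of 5344 (89.1%, 88.2 to 89.9), on both sides for 42.1%, and for the nearest start for 69.3%. Intermediate peaks gave 88.9% on either side. The 46.5% is a share of single genes, so it is no background for a share that counts either side. Of the 1091 intervals between genes with any desert peak, 906 (83.0%, 80.7 to 85.2) had an acetylated promoter at an end. By interval, an acetylated promoter stood at either end of 61.9% (59.2 to 64.6) of those with no desert peak, 76.2% of those with 1 or 2, 89.1% of those with 3 to 9 and 91.4% (85.9 to 94.9) of those with 10 or more. Median interval length rose along the same order, from 295 to 462, 618 and 888 kb.

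Neither flanking promoter was acetylated for 583 desert peaks (10.9%), whose median fold enrichment of 3.88 was close to that of all desert peaks. Among them a peak of fold enrichment 21.5 at chr16:63090558-63092528 between Pros1 and the ephrin receptor gene Epha3 overlapped a Chd7 peak of fold enrichment 6.03.

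WT Chd7 peaks overlapped 292 of the 5344 desert peaks by at least 1 bp, or 5.46% (4.89 to 6.11). Over all H3K27ac peaks the share was 5.06%, so the desert share lay near the background as a whole, between the 3.39% (3.11 to 3.69) of intermediate and the 7.34% (6.85 to 7.86) of promoter peaks. By distance the share was 3.57% at 50 to 100 kb, 4.74% at 100 to 200 kb, 6.26% at 200 to 500 kb, 6.07% at 500 to 1000 kb and 4.30% (2.20 to 8.26) beyond. No desert peak overlapped a peak called in Chd7-deficient GNPs (0 of 5344, Wilson interval up to 0.0718%). Such overlap was rare over all H3K27ac peaks too, with 2 of 30723 (0.00651%), so the 0 is not particular to deserts. Only 47 peaks were called in Chd7-deficient GNPs on these chromosomes.

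Enrichment for H3K27ac separated desert peaks with and without Chd7. The 292 with Chd7 had a median fold enrichment of 7.38 and a median width of 1491 bp, against 3.77 and 498 bp without. In the top decile of desert fold enrichment, from 7.28 up, Chd7 overlapped 147 of 534 desert peaks (27.5%, 23.9 to 31.5). Intermediate peaks in the same range gave 16.2% (14.6 to 17.9) and promoter peaks 11.9% (11 to 12.8). In the bottom decile the desert share was 1.49%.

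**Figure D3:**
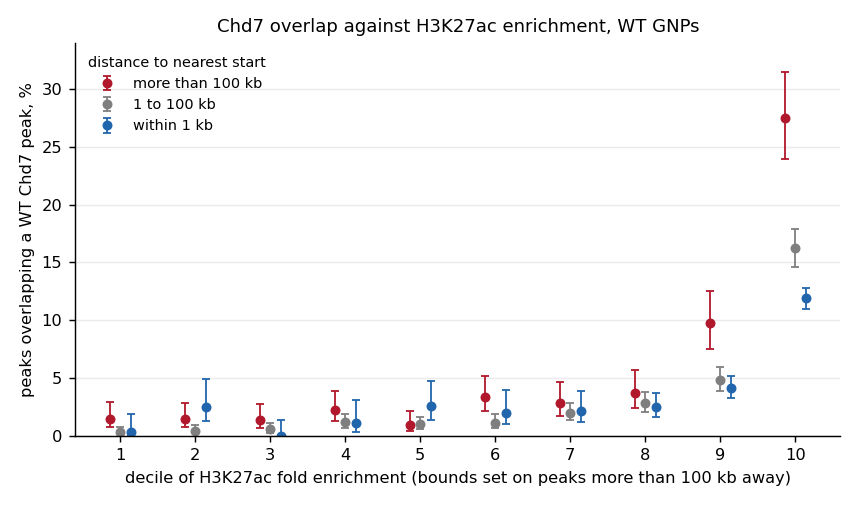
Percent of H3K27ac peaks overlapping a WT Chd7 peak in each decile of H3K27ac fold enrichment, with decile bounds set on desert peaks; points are shares for the 3 distance classes and bars 95% Wilson intervals. Desert peaks lie above the other classes in the 2 highest deciles, at 9.74% and 27.5%.

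At equal H3K27ac fold enrichment the desert share exceeded that of both other classes. Reweighted to the desert deciles of fold enrichment, intermediate peaks gave 3.03% (2.78 to 3.28) and promoter peaks 2.92% (2.55 to 3.29), and the desert share was higher than the intermediate one in 9 of 10 deciles. Reweighted to deciles of width, the shares were 3.01% (2.76 to 3.27) and 4.72% (4.27 to 5.17), so at equal width the desert and promoter intervals overlapped. Location mattered as well: Chd7 overlapped 6.51% (5.74 to 7.38) of desert peaks outside protein-coding genes and 3.52% (2.78 to 4.46) of those inside. Intermediate peaks gave 4.69% (4.12 to 5.32) outside and 2.80% (2.50 to 3.13) inside, so the excess in deserts was seen outside genes with separate intervals and inside genes with intervals that overlap. Desert peaks lay outside genes more often (64.9%) than intermediate peaks (31.5%).

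Counted from Chd7, 392 of its 1888 peaks on these chromosomes (20.8%, 19 to 22.7) were more than 100 kb from a coding start, and 271 of the 392 (69.1%, 64.4 to 73.5) overlapped an H3K27ac peak. The Chd7 summit lay a median of 338 bp from the H3K27ac summit (quartiles 223 and 476 bp). Chd7 fold enrichment had a median of 4.29 at desert peaks (2.70 to 13.7), 4.05 at intermediate and 3.98 at promoter peaks.

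The highest Chd7 enrichment at a desert peak, 13.7, was in the Reln intron whose sequence is given above. Reln encodes the secreted protein that granule cells release and that positions Purkinje cells. The Chd7 peak at chr5:22093017-22093798 lay within an H3K27ac peak of 7.92, 252 kb from the Reln start and 227 kb from that of Slc26a5. It was 1 of 17 desert peaks within Reln, and the 1 of them with Chd7. The next were between Brinp3 and Pla2g4a (9.82) and between Gpm6a, a neuronal membrane glycoprotein gene, and Adam29 (9.43).

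Other desert Chd7 peaks with high enrichment spread over distinct loci. Between Frk and Amd2 a Chd7 peak of 7.42 bridged 2 H3K27ac peaks of 2.83 and 7.54. Between Tmem161b and Ccnh a Chd7 peak of 7.31 touched both of the peaks of 26.6 and 26.9. In an intron of the receptor phosphatase gene Ptprk, Chd7 reached 7.03. Beyond the gene Chd7 itself, 165 kb from its start towards Clvs1, an H3K27ac peak of 15.3 carried a Chd7 peak of 6.66. Further loci of the top 15 were beside Zfp608 (8.54), G2e3 (6.95), Pcdh9 (6.75) and Klhl29 (6.74).

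Top2b, measured in CGNs and not in the GNPs in which the peaks were called, overlapped few desert peaks. In WT CGNs the share was 6.47% (346 peaks, 5.85 to 7.17), against 9.48% of all H3K27ac peaks, 7.22% of intermediate and 14.4% of promoter peaks. In Chd7-deficient CGNs it was 10.5% (561 peaks, 9.70 to 11.3), against 18.5%, 11.5% and 33.0%. Reweighted to desert fold enrichment, intermediate peaks gave 6.87% and 10.9%, inside the desert intervals, while promoter peaks gave 9.54% and 22.8%. The share with Top2b fell with distance, to 3.44% in WT and 6.07% in Chd7-deficient CGNs at 500 to 1000 kb.

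Between genotypes the count with Top2b was 1.62 times higher in Chd7-deficient CGNs at desert peaks, 1.60 times at intermediate and 2.29 times at promoter peaks. Both libraries shared 144 of the desert peaks, which is 41.6% of the WT and 25.7% of the Chd7-deficient ones. The libraries listed 16875 and 21404 Top2b peaks on these chromosomes, of which 4177 and 4612 were more than 100 kb from a start, and with 1 library per genotype a difference in depth and a difference in binding cannot be told apart. Most distant Top2b peaks overlapped no H3K27ac peak of GNPs: the overlap was 8.24% of the 4177 and 11.9% of the 4612. Most Top2b peaks nearer to a start overlapped none either, with shares of 20.4% and 30.5%. Acetylation was not measured in CGNs, so its state at these sites in those cells is not known.

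Desert peaks with Chd7 more often had Top2b as well, as did peaks of the other classes. In WT CGNs the share was 19.5% (15.4 to 24.5) with Chd7 and 5.72% (5.11 to 6.40) without, and in Chd7-deficient CGNs 32.5% (27.4 to 38.1) and 9.22% (8.46 to 10.1). Over all H3K27ac peaks the shares with and without Chd7 were 24.6% and 8.67% in WT and 43.7% and 17.1% in Chd7-deficient CGNs, and the desert shares with Chd7 were the lowest of the 3 classes. The peaks with Chd7 were also the more enriched for H3K27ac, and the part of that enrichment in this difference was not tested. Desert peaks within 1 kb of a non-coding start had Top2b in 19.7% (14.9 to 25.6) of cases in Chd7-deficient CGNs, against 10.1% (9.32 to 11) for the rest. In WT CGNs these shares were 7.04% (4.31 to 11.3) and 6.45% (5.81 to 7.16), with intervals that overlap.

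**Figure D4:**
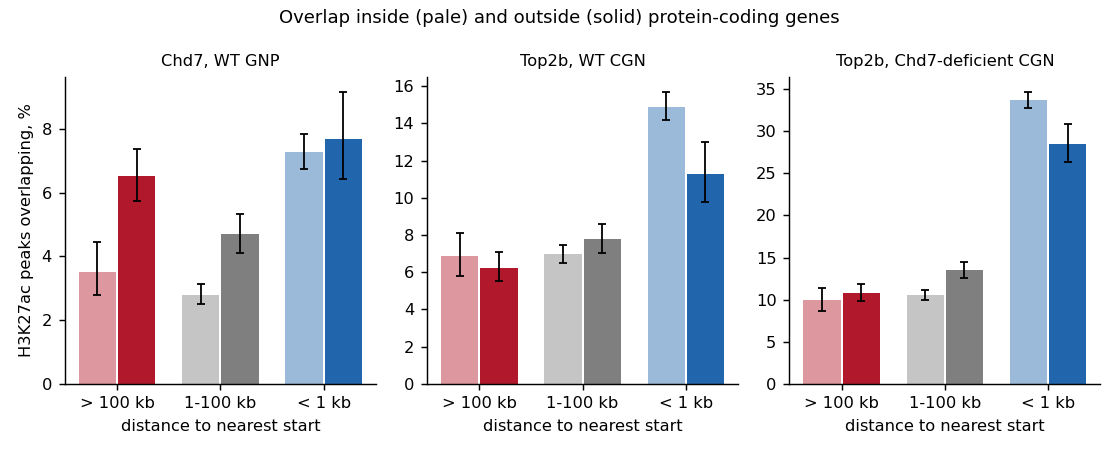
Percent of H3K27ac peaks overlapping Chd7 in WT GNPs and Top2b in CGNs of both genotypes, for peaks inside (pale bars) and outside (solid bars) protein-coding genes at 3 distances from a start; error bars are 95% Wilson intervals and each panel has its own scale. Desert peaks outside genes carry Chd7 at 6.51% against 3.52% inside, while their Top2b shares differ little, at 6.25% and 6.88% in WT CGNs.

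Sequence at the desert summits was poorer in G and C than at other peaks. In windows reaching 150 bp to either side of the summit the mean G+C content was 45.2% (SD 6.22), against 49.7% at intermediate and 64.2% at promoter summits and 41.2% in windows 5 kb to either side of the desert summits. CpG dinucleotides averaged 3.38 per desert window, 5.07 per intermediate and 24.6 per promoter window. Repeat-masked bases made up 14.2% of desert windows and 29.3% of the windows beside them.

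Motif content at desert summits followed these groups. The GA-core E-box was found in 28.7% of desert windows, 28.1% of intermediate, 11.1% of promoter and 22.5% of all H3K27ac summit windows, and in 21.9% of windows 5 kb away. For the NFI motif these shares were 19.3%, 17.4%, 7.69% and 14.5%, with 14.8% in windows 5 kb away, and for the GC-core E-box 17.6%, 20.2%, 15.1% and 18.1%, with 11.1%. The homeodomain motif (TAATTA) was in 9.45% of desert windows, 5.62% of intermediate and 4.93% of all, but in 11.2% of the windows 5 kb away, which were poorer still in G and C.

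At Chd7 summits in deserts the E-boxes and the NFI motif were more frequent. Of 271 windows, 51.7% held the GA-core E-box, 43.2% the NFI motif and 37.3% the GC-core E-box, against 20.7%, 17.2% and 10.5% in windows 5 kb to either side, with intervals that did not overlap. The Meis motif (TGACAG) was in 33.6% against 22.1%, the Zic motif in 15.9% against 4.06% and the homeodomain motif in 15.9% against 8.86%. Over all 1888 Chd7 summits the shares were 31.4% for the GA-core E-box, 25.6% for the NFI motif and 26.1% for the GC-core E-box, all below the desert intervals. They were 23.6% for Meis, 6.94% for homeodomain and 14.6% for Zic, so the Zic share in deserts lay near that of all Chd7 summits. Chd7 summits at intermediate peaks gave 50.4%, 35.6% and 31.8% for the GA-core E-box, the NFI motif and the GC-core E-box, and those at promoter peaks 10.8%, 9.31% and 18.2%. The desert and intermediate Chd7 sites thus resembled each other in these letters more than either resembled promoters, whose G+C content at Chd7 summits was 66.9% against 48.0% in deserts.

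Other motifs were rarer. The Sox motif (ACAATGG) was in 5.30% of desert windows and 4.06% of desert Chd7 windows, the AP-1 motif (TGACTCA) in 5.54% and 4.80%, the POU octamer in 2.15% (1.8 to 2.58) and 4.80% (2.82 to 8.03), and the CTCF core (AGGGGGC) in 3.22% and 2.95%. The cyclic AMP response element was in 0.112% (0.0515 to 0.245) and 1.11% (3 of 271, 0.377 to 3.20). For it and the POU octamer the intervals at desert H3K27ac summits and at desert Chd7 summits were separate. Against windows 5 kb to either side of the desert Chd7 summits, however, the intervals overlapped for both motifs. Over all Chd7 summits the element was in 1.38% and the octamer in 2.81%. The Gli motif was in 0.262% and 0 of 271. The NFI inverted repeat, which can hold the NFI motif, was in 0 of 5344 and 0.369%. A match shows only that these letters are present.

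**Figure D5:**
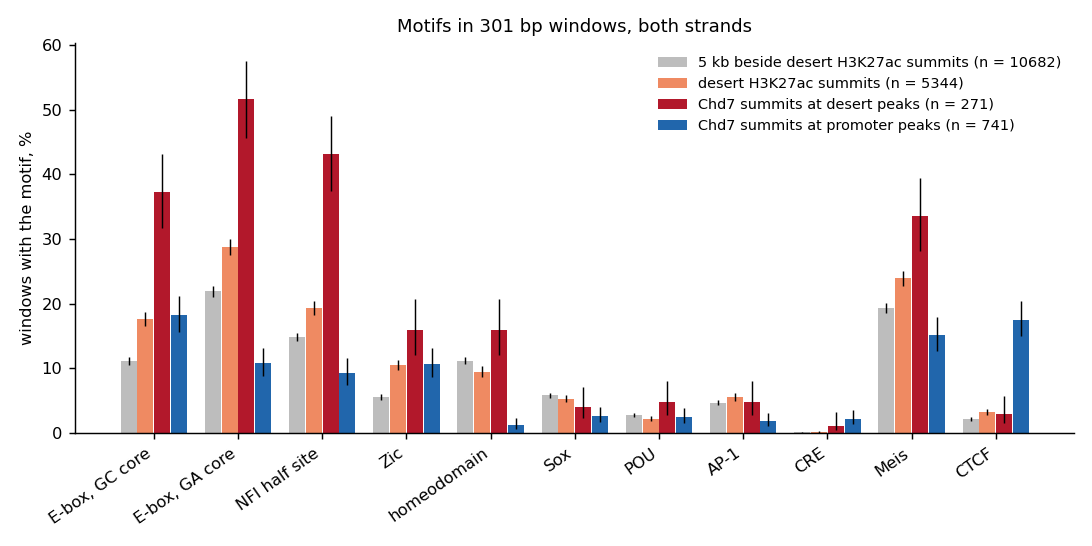
Percent of windows, 150 bp to either side of a summit, holding each motif on either strand, for windows 5 kb beside desert H3K27ac summits (n = 10682), desert H3K27ac summits (n = 5344), Chd7 summits at desert peaks (n = 271) and Chd7 summits at promoter peaks (n = 741), with 95% Wilson intervals. E-boxes and the NFI motif are most frequent at the desert Chd7 summits, at 51.7% for the GA core, 37.3% for the GC core and 43.2% for the NFI motif.

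The cell type of the library was checked on acetylated promoters. All 11 markers of GNPs had an acetylated promoter, with fold enrichments of 3.55 to 33.8, against 1 of 6 for Purkinje cells, 2 of 5 for interneuron progenitors, 3 of 5 for Bergmann glia and astrocytes, 2 of 5 for the oligodendrocyte lineage, 1 of 4 for microglia and 0 of 3 for endothelium. Of all coding genes 46.5% had an acetylated promoter. The counts for interneuron progenitors, for Bergmann glia and astrocytes and for the oligodendrocyte lineage were not clearly below that share. The check thus does not show that such cells were absent. Which desert peaks came from cells other than GNPs was not tested.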

How the data were processed

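H3K27ac and Chd7 were profiled in GNPs and Top2b in CGNs, with 1 sample per condition. The GNP and CGN input libraries were not used here. Following the study's methods, the authors trimmed the reads with Trim Galore, mapped them to mm10 with Bowtie 1.0.0, keeping unique alignments, and called peaks with MACS2 at its defaults, or with HOMER for Top2b. Pileup in the deposited H3K27ac and Chd7 tables is a coverage signal. The decimal points of 3 other columns (−log10 p, fold enrichment, −log10 q) were missing in the deposited tables and were restored by dividing by 100000. Recomputed −log10 p-values for H3K27ac differed by a relative 0.000497 at most. The Top2b tables hold positions only. The study's methods give a lower bound for the mapped reads of its ChIP-seq but no depth per library, and the deposited tables hold no read totals, so the number of peaks is given instead: 31400 for H3K27ac, 1946 and 96 for Chd7 in WT and Chd7-deficient GNPs, 17030 and 21505 for Top2b.

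Distances, overlaps (at least 1 bp), clusters and motifs were computed in Python 3.11.15 with pandas 2.3.3, scipy 1.17.1 and pysam 0.24.0 on GENCODE M21 and RefSeq GRCm38.p6, and the interval routines were tested on simulated data. Shares have 95% Wilson intervals and medians order-statistic intervals. Reweighted shares average a class over the deciles of desert peaks. Motifs were searched on both strands with the letters given in the report, and with ATGCAAAT for the POU octamer, TGACGTCA for the cyclic AMP response element, GACCACCCA for Gli, and TTGGC followed after any 5 bases by its reverse complement for the NFI inverted repeat. Among all RefSeq promoters (250 bp before to 50 bp after a start), the NFI motif was in 14.1%, the GA-core E-box in 17.2% and the GC-core E-box in 16.3%.

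Named were the 10 peaks of highest fold enrichment, the 10 widest, the 15 with the highest Chd7 enrichment, the 8 clusters with most peaks, the 5 peaks to either side of 100 kb, the 5 farthest, their neighbouring genes, the 12 genes nearest to most desert peaks, and the members of 3 gene lists nearest to at least 3; some of these items are not reported here. Peaks without an acetylated flanking promoter and intervals by signal were picked after their values were seen. Members and lists were chosen with earlier results of these data known. Alternatives changed the distance, the starts, the peak thresholds, the overlap, the stitching and the treatment of repeats.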

Additional observations from a re-analysis of the deposited data

Results flagged for a closer look

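Chromosome X, left out by the rule, also held H3K27ac peaks far from coding starts. There 81 of 666 peaks (12.2%, 9.89 to 14.9) had a summit more than 100 kb from a protein-coding start, with a median fold enrichment of 4.72 and a median width of 567 bp. Chd7 overlapped 0 of the 81 (Wilson interval up to 4.53%). The Chd7 share over all 666 peaks of chromosome X was not computed, so the 0 has no background to be read against.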

How the results depend on the processing

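Of 68 alternatives over 9 results, 26 stayed inside the interval of the reported value (for the number of peaks, within 1.5 times) and 42 moved. Above 50 kb there were 8674 peaks, with Chd7 at 4.74%, 44.2% inside genes and 38.8% in clusters; above 200 kb 2874 peaks, with Top2b at 5.60% (WT) and 9.67% (Chd7-deficient), 22.5% inside genes and 30.9% in clusters. With starts of all transcripts 896 peaks remained, with a width of 496 bp, Chd7 at 4.69%, Top2b at 5.25% and 9.60%, 40.2% inside genes and 24.2% in clusters. At a −log10 q of at least 5, 3233 peaks remained (fold enrichment 4.51, width 706 bp, Chd7 8.35%, Top2b 9% and 14.8%, 33.2% inside genes, 26.8% in clusters), and at 10, 1571 (6.19, 1170 bp, 14.3%, 12.54% and 22.5%, 30.7%, 12.7%). The Chd7 share was 2.75% with Chd7 peaks at a −log10 q of at least 5, 3.93% with the summit inside the H3K27ac peak and 3.97% with at least 50% of the Chd7 peak covered. Split after the data were seen, it was 6.51% outside and 3.52% inside genes. Top2b centres inside the peak gave 5.13% and 8.18%, stitching over 5 and 25 kb put 25.9% and 47.0% in clusters, and a peak over the start itself gave 80.6% with an acetylated flanking promoter. The desert Chd7 share exceeded the intermediate share under each of 10 alternatives, by 1.27 (starts of all transcripts, where the intervals overlap) to 1.89 times.

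No paired analysis was possible because each condition has 1 sample. Without replicates, no value here has an error between animals, and without the depth of each library, weak peaks missed at lower depth cannot be counted.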
